A study of Rattus norvegicus with 14 samples.

Results

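The genes described are 37 regulators and effectors of cell death in rat colonocytes: the Bcl-2 family, the apoptotic and inflammatory caspases, the death receptor and TNF receptor adaptors, the caspase inhibitors and their antagonists, and the nucleases that act at the end of apoptosis. They were picked out by gene name on a 1-colour Agilent array, and all 37 of 37 were found among 26276 gene names. They had 53 probes among the 30367 on the array, and each gene was represented by the brightest of its probes. Colonocytes, the epithelial cells lining the colon, came from male Wistar rats that ate isocaloric diets freely for 15 days. In the normal-protein diet (NPD) 14% of energy came from protein, and in the high-protein diet (HPD) 55%. Cells were detached with EDTA, and arrays of 7 NPD and 7 HPD rats were analysed, 1 per rat, which are those left after the study had set aside 1 array of each diet as an outlier in a principal component analysis. The comparison asks how the diet changed transcript abundance in these cells. Values are log2 signals with the median probe of each array set to 0, so a level is meaningful between rats for 1 probe and not between probes. On single arrays 19631 to 20967 probes (NPD) and 18835 to 20374 probes (HPD) were well above background. The number of arrays limits the precision.

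Apoptosis runs along a pair of routes. In the extrinsic route a death receptor such as Fas binds the adaptor Fadd, which recruits and activates caspase-8. In the intrinsic route BH3-only proteins release Bax and Bak1 from survival proteins of the Bcl-2 family, the outer mitochondrial membrane is opened, and cytochrome c joins Apaf1 to activate caspase-9. The colonic epithelium is continuously renewed, and cells are lost at its surface as others are produced in the crypts.

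Probes of genes of both routes are shown. The choice of probe decided the values of Casp9, Ripk1 and Fas, whereas Fadd, Casp8 and Bax have 1 probe each. Apaf1, whose probes also differ, is not shown. For Casp9 they are the brightest probe and the one with another result, for Ripk1 the dimmer probe, and for Fas, Fadd, Casp8 and Bax the probe behind the values given for the gene. Each is a 60-base oligonucleotide of the array as listed in the array files, and positions are in the rat build rn4 as those files give them. The Casp9 pair lies on the plus strand of chromosome 5 at chr5:160719541-160719600 (brightest probe) and chr5:160706833-160706892 (the other), the Fas probe on the plus strand at chr1:238259523-238259582, the Fadd probe on the minus strand at chr1:205010420-205010479 and the dimmer Ripk1 probe on the minus strand at chr17:37185923-37185982. The Casp8 probe, on the plus strand, is given as chr9:57428119-57435205, a span much longer than the probe. The Bax probe is listed as unmapped.
Casp9, brightest probe: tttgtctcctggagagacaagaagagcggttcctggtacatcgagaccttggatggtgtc
Casp9, other probe: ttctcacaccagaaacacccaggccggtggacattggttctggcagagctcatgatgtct
Fas, brightest probe: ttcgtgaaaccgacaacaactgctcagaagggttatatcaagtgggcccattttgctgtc
Fadd: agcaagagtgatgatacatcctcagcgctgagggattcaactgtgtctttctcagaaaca
Casp8: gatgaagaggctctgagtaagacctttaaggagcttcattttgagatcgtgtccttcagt
Bax: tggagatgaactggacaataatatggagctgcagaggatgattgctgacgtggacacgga
Ripk1, dimmer probe: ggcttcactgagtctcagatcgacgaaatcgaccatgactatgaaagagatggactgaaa

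None of the 37 genes differed between the diets at a q-value of 0.1 (limma, Benjamini-Hochberg adjustment over all probes), a threshold that 0.056% of all probes passed, all of them higher with the HPD. At an unadjusted p under 0.05 there were 5 of 37 genes (13.5%), against 11.4% of all probes and 13.8% of the 18382 probes well above background, so the share of these genes was near the background. Casp9, Fas and Ripk1 were lower in rats fed an HPD, which is 8.11% of the genes against 5.55% of all probes and 8.48% of those well above background. Xiap and Pmaip1 were higher, where 5.86% of all probes and 5.29% of those well above background were. Their q-values lay between 0.417 and 0.437. Single rats moved these counts. Lower genes numbered 7 without HPD replicate 1, 5 without NPD replicate 6 and 1 without HPD replicate 7. No gene was higher without HPD replicate 7 or without NPD replicate 2, 4 or 7, and 1 was without HPD replicate 1, 4, 5 or 6 or NPD replicate 3 or 6. Shares of all probes in fits with a rat left out are not given. Whether these counts moved more than those of all probes was therefore not tested. By the brightest probe 19 genes had a lower and 18 a higher mean with the HPD. That is 51.4% lower, against 35.8% of all probes, 43.2% of probes well above background and 49.9% of all probes after cyclic loess scaling. The number of lower genes was 15 when arrays were centred over spots, 23 with normexp and 24 in the deposited table. The median log2 fold change of the 37 genes was -0.02, and that of all probes was 0.11 on the same scale. Of 35 genes with a measurable fold, the 95% interval of the difference stayed within 1 on the log2 scale for 34 and within 0.5 for 13. The remaining 2 genes, Bcl2l11 and Casp12, were dim. The counts and medians of the 37 genes still include them, Bcl2l11 as lower and Casp12 as higher. With normexp background correction 5 genes passed the q-value of 0.1 (Bok, Casp9, Htra2 and Ripk1 lower, Pmaip1 higher), where 16.9% of all probes did, 6.15% lower and 10.8% higher. In the deposited log2 table with slide as a block, 3 genes passed (Bax, Bok and Ripk1, all lower), where 10.5% of its rows did, 6.5% lower and 3.98% higher. None passed in that table without the block, where 0.0681% of rows did.

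**Figure D1:**
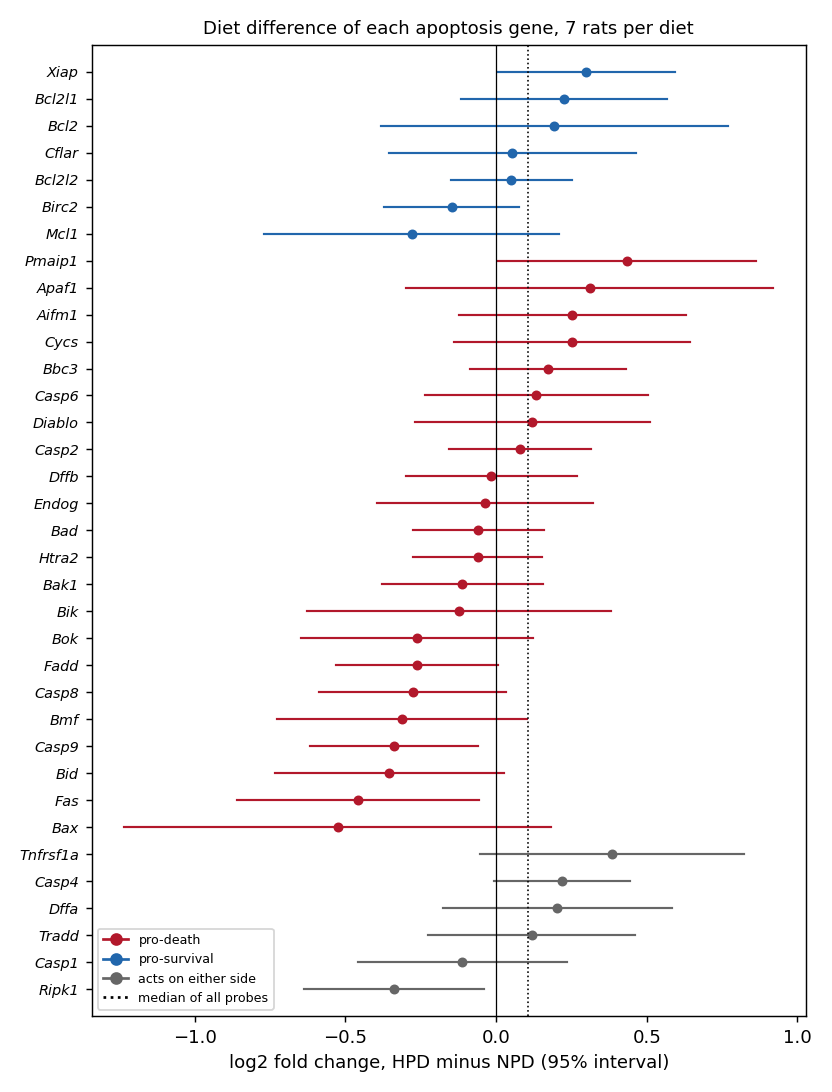
Log2 fold change of each gene, HPD minus NPD, with its 95% interval, by the brightest probe. Genes are coloured by role, the solid line marks 0 and the dotted line the median of all probes, 0.11. Most intervals cross 0, and the largest fall (Bax, -0.53) has the widest interval.

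On the extrinsic route the receptor, the adaptor and the caspase all had lower means with the HPD. Fas encodes the death receptor CD95. Its signal was -0.29, 0.18 and 0.53 (lowest, median and highest) in NPD rats and -0.76, -0.19 and 0.41 in HPD rats. The ranges overlapped, with 3 HPD rats below every NPD rat and 6 of 7 under the average NPD signal. The log2 fold change was -0.46 ± 0.19 (SE, n = 7 per diet), with q = 0.418 in limma and p = 0.0385 in an exact two-sided permutation test. Fadd, the adaptor between Fas and caspase-8, was described in more detail after its values were seen. It ran from 0.32 to 0.82 in NPD rats (median 0.58) and from 0.0031 to 0.55 in HPD rats (median 0.42). All 7 HPD rats were below the NPD mean, yet the ranges overlapped. The change was -0.26 ± 0.13, with q = 0.441 in limma and an exact permutation p of 0.0355. Casp8 encodes the initiator caspase of this route. Its signal was 0.75, 1.23 and 1.33 in NPD rats and 0.57, 0.73 and 1.42 in HPD rats. In HPD rats 4 values were below every NPD value, and 1, in replicate 1, was above all of them. The change was -0.28 ± 0.15 (q = 0.455 in limma, exact permutation p = 0.0659). Without HPD replicate 1 it was -0.38 (limma q = 0.143). Cflar, which encodes the caspase-8 regulator c-FLIP, had a change of 0.05 ± 0.19 (q = 0.893 in limma) and turned to -0.03 with slide in the fit.

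In the TNF receptor complex the 3 genes did not go one way. Ripk1 encodes the kinase that carries TNF receptor signals toward survival, apoptosis or necroptosis. It was 3.11, 3.53 and 3.71 in NPD rats and 2.74, 3.17 and 3.47 in HPD rats. The ranges overlapped, and 3 HPD rats lay below all NPD rats. The change was -0.34 ± 0.14 (q = 0.418 in limma). The exact permutation p was 0.0262 over all arrays and 0.00408 when rats were regrouped only within slides. Tnfrsf1a, the TNF receptor itself, went the other way in its mean, by 0.38 ± 0.21 (q = 0.463 in limma). With slide in the fit its change was 0.29 (limma p = 0.0101), and its exact permutation p within slides was 0.00735. Tradd, the adaptor that binds this receptor, had a change of 0.12 ± 0.16 (q = 0.717 in limma).

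All 3 multidomain effectors of the Bcl-2 family, which open the mitochondrial membrane, had lower means. Bax had the largest fall among the 37 genes and also the widest spread. It was 1.84, 2.88 and 3.10 in NPD rats and 1.15, 2.04 and 3.09 in HPD rats. The diets overlapped almost fully at the top, and 3 HPD rats were below every NPD rat. The change was -0.53 ± 0.33, with q = 0.510 in limma and an exact permutation p of 0.165. The 2 array slides separated its values. On slide 1 NPD rats were at 2.88 to 3.10 and HPD rats at 2.59 to 3.09, whereas on slide 2 they were at 1.84 to 2.18 and 1.15 to 2.04. With slide in the fit the change was -0.36 (limma p = 0.0289, q = 0.284), and the exact permutation p within slides was 0.0310. Bax and Ripk1 were also among the genes that the study drew from these same arrays, so that choice is no independent evidence of their direction. Bak1 (-0.11 ± 0.13) and Bok (-0.26 ± 0.18) had q-values of 0.661 and 0.515 in limma.

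The 7 BH3-only genes, whose products sense stress and neutralise survival proteins, were mixed, with 5 lower and 2 higher means. Pmaip1, which encodes Noxa, had the largest rise of the 37 genes. It was -2.95, -2.12 and -1.86 in NPD rats and -2.27, -1.73 and -1.01 in HPD rats, a dim signal that was above background on 6 of 7 arrays of each diet. The ranges overlapped, with 4 HPD rats above every NPD rat. The change was 0.44 ± 0.20, with q = 0.437 in limma and an exact permutation p of 0.0443. Within slides the exact permutation p was 0.0547, and with slide in the fit the limma p was 0.0555. It was 0.31 (limma q = 0.625) without NPD replicate 2, the lowest of that group. Bid, which caspase-8 cleaves and which links the extrinsic to the intrinsic route, had a change of -0.35 ± 0.18 (q = 0.449 in limma), and Bmf one of -0.31 ± 0.19 (q = 0.504). Bbc3, which encodes Puma, had a change of 0.17 ± 0.12, Bik one of -0.12 ± 0.24 and Bad one of -0.06 ± 0.10. Bcl2l11, which encodes Bim, was above background on 1 NPD array and on no HPD array, and no fold is given. It is nevertheless counted among the 5 with lower means.

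The survival proteins of the family hold Bax and Bak1 inactive. Bcl2 was -0.72, -0.01 and 0.75 in NPD rats and -0.51, 0.50 and 0.66 in HPD rats. No HPD rat was above the highest NPD rat, and the diets overlapped throughout. The change was 0.19 ± 0.27 with a 95% interval from -0.38 to 0.77 (q = 0.724 in limma), and 0.06 with slide in the fit. Bcl2l1, which encodes Bcl-xL, had a change of 0.23 ± 0.16, and its 4 probes had changes between 0.23 and 0.36. Bcl2l2, which encodes Bcl-w, had a change of 0.05 ± 0.09, and Mcl1 one of -0.28 ± 0.23. The limma q-values of the 4 genes were 0.515 to 0.791.

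**Figure D2:**
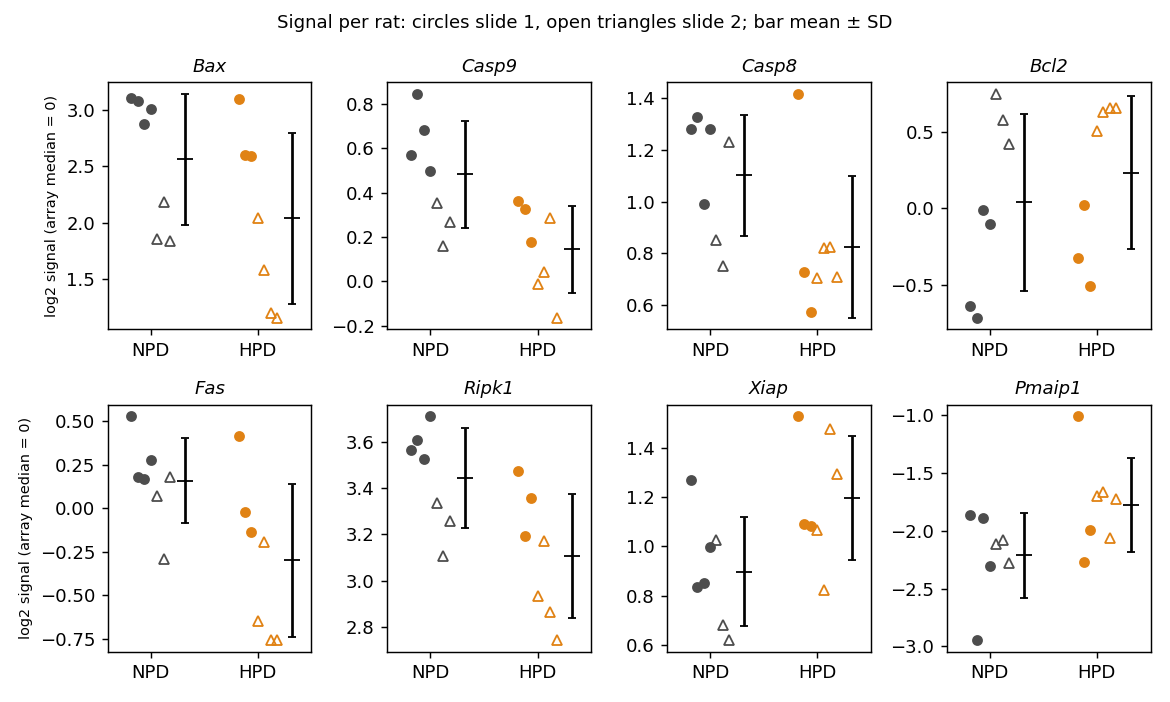
Log2 signal of each rat for 8 genes, relative to the median of its array, in NPD and HPD rats. Circles are arrays of slide 1, open triangles arrays of slide 2, and bars the mean ± SD of 7 rats. The diets overlap in every panel, and in Bax and Bcl2 the slides separate the points more than the diets do.

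Downstream of the mitochondria, the mean of Casp9 was lower with the HPD, and the means of Apaf1 and Cycs were higher by their brightest probes. Casp9 encodes the initiator caspase of the intrinsic route. Its signal was 0.16, 0.50 and 0.85 in NPD rats and -0.17, 0.17 and 0.36 in HPD rats. All 7 HPD rats were below the NPD mean and 3 were below every NPD rat, although the ranges overlapped. The change was -0.34 ± 0.13, with q = 0.417 in limma. The exact permutation p was 0.0157 over all arrays and 0.00490 within slides, and the change was -0.29 with slide in the fit. Apaf1, the scaffold of the apoptosome, had a change of 0.31 ± 0.29 and Cycs, which encodes cytochrome c, one of 0.25 ± 0.18 (q = 0.596 and 0.515 in limma). Casp6, an executioner caspase, had a change of 0.13 ± 0.17, and Casp2, an initiator caspase activated by stress, one of 0.08 ± 0.11.

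Among the inhibitors of apoptosis proteins, which bind caspases, Xiap was higher. Its signal was 0.62, 0.85 and 1.27 in NPD rats and 0.82, 1.09 and 1.53 in HPD rats. In HPD rats 6 of 7 values were above the NPD mean and 3 above every NPD value, so the ranges overlapped. The change was 0.30 ± 0.14, with q = 0.436 in limma and an exact permutation p of 0.0338. The second Xiap probe had a change of 0.28 ± 0.11 and an exact permutation p of 0.00991 (limma q = 0.417). Birc2, which encodes cIAP1, had a change of -0.15 ± 0.11 (q = 0.515 in limma). The mitochondrial antagonists of these inhibitors had changes of 0.12 ± 0.18 (Diablo) and -0.06 ± 0.10 (Htra2).

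The inflammatory caspases process cytokines and gasdermins. Casp4 was described in more detail after its values were seen. It ran from 3.20 to 3.58 in NPD rats (median 3.52) and from 3.43 to 3.94 in HPD rats (median 3.68), with 6 of 7 HPD rats above every NPD rat. The change was 0.22 ± 0.11, with q = 0.441 in limma and an exact permutation p of 0.0146. Casp1, which matures interleukin-1 beta, had a change of -0.11 ± 0.16 (q = 0.735 in limma). Casp12 was not above background on any array, and no fold is given. Of the genes for DNA breakdown, the changes were 0.25 ± 0.18 for Aifm1, 0.20 ± 0.18 for Dffa, -0.02 ± 0.13 for Dffb and -0.04 ± 0.17 for Endog, with limma q-values of 0.515 to 0.959.

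Set by role, 15 of 23 pro-death genes (65.2%) and 2 of 7 pro-survival genes (28.6%) had lower means with the HPD. Beside them stand 35.8% of all probes, 43.2% of probes well above background and 49.9% of all probes after cyclic loess scaling. The remaining 7 genes act on either side or take part in inflammation, and 2 of them were lower. The dim Bcl2l11 is included as a lower pro-death gene, and the dim Casp12 as a higher gene among these 7. The median log2 fold change was -0.06 over pro-death genes, 0.05 over pro-survival genes and 0.12 over the others, where that of all probes was 0.11. The pro-death median turned to 0.0042 when arrays were centred over spots. The pro-survival median turned to -0.08 with normexp and -0.09 in the deposited table. It was also negative with centring on the mean (-0.02), mean pixel signal (-0.05) and median pixel signal (-0.04). The pro-death median lay 0.12 below the pro-survival median. On each array the mean signal of the pro-death genes was set against that of the pro-survival genes, a difference whose size depends on the probes and is comparable only between rats. It ran from -0.34 to -0.17 in NPD rats (median -0.20) and from -0.47 to -0.22 in HPD rats (median -0.39), so the diets overlapped, and no test was made of it. No more than 2 pro-death genes were lower at an unadjusted p under 0.05, Casp9 and Fas. That is 8.70% of 23, beside 5.55% of all probes and 8.48% of those well above background, so it was near the background.

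Each slide held arrays of both diets, slide 1 with 4 NPD and 3 HPD rats and slide 2 with 3 NPD and 4 HPD rats. Of the 37 genes 18 differed between the slides at a limma q-value of 0.1, 11 higher and 7 lower on slide 2, where 40.1% of all probes did. The slide difference was larger in size than the diet difference in 28 genes, and in 10 genes the slides did not overlap. No share of all probes is given for these counts, so they do not mark these genes out. The largest slide differences were Bax at -1.16 (slide 2 minus slide 1), Apaf1 at 1.03, Bcl2 at 0.92 and Tnfrsf1a at 0.69. The diet difference had the same direction on both slides in 15 genes that were lower (25.8% of all probes were) and 14 that were higher (45.3%), and opposite directions in 8. The change of Casp9 was -0.36 on slide 1 and -0.22 on slide 2, that of Ripk1 -0.26 and -0.31, and that of Fas -0.20 and -0.58. With slide as a block 6 genes were lower and 3 higher at an unadjusted p under 0.05, where 7.32% of all probes were in each direction, and none had a q-value under 0.1, which 0.0889% of all probes had.

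**Figure D3:**
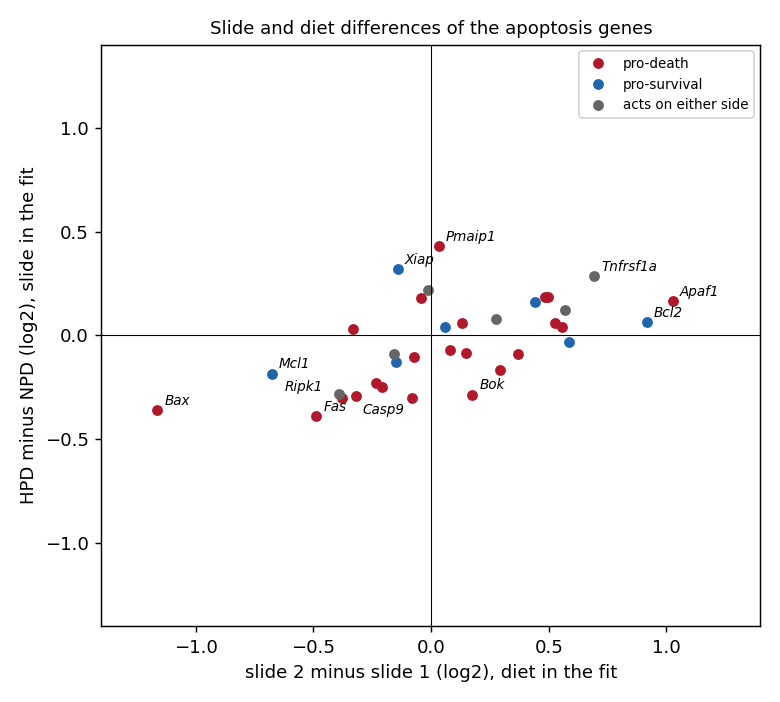
Diet difference (HPD minus NPD, vertical) against slide difference (slide 2 minus slide 1, horizontal) of each gene, both log2, from 1 fit with both terms. Genes are coloured by role. The points spread more along the slide axis, from -1.16 (Bax) to 1.03 (Apaf1), than along the diet axis.

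For 12 genes the array had more than 1 probe, and in 6 of them the probes differed in the sign of the change. The second Casp9 probe had a change of 0.05 ± 0.31 against -0.34 for the brightest, and the dimmer Ripk1 probe one of 0.07 ± 0.15 against -0.34. The dimmer Fas probe, above background on 5 arrays of each diet, had a change of -0.03 ± 0.38. The dimmer Apaf1 probe had a change of -0.74 ± 0.30 (limma q = 0.417), opposite in sign to the brightest. The dimmer Bok probe went the way of the brightest and further, by -0.59 ± 0.18, with q = 0.417 in limma and an exact permutation p of 0.00874. Another Casp2 probe had a change of 0.22 ± 0.09 (limma q = 0.418). Its unadjusted exact permutation p was 0.000583, against 0.378 for the brightest Casp2 probe. The lower limit of that test is reached only where the diets do not overlap, which held for 83 of 30367 probes (0.273%). The probes other than the brightest are reported after their values were seen, and which transcripts each probe detects was not tested.

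**Figure D4:**
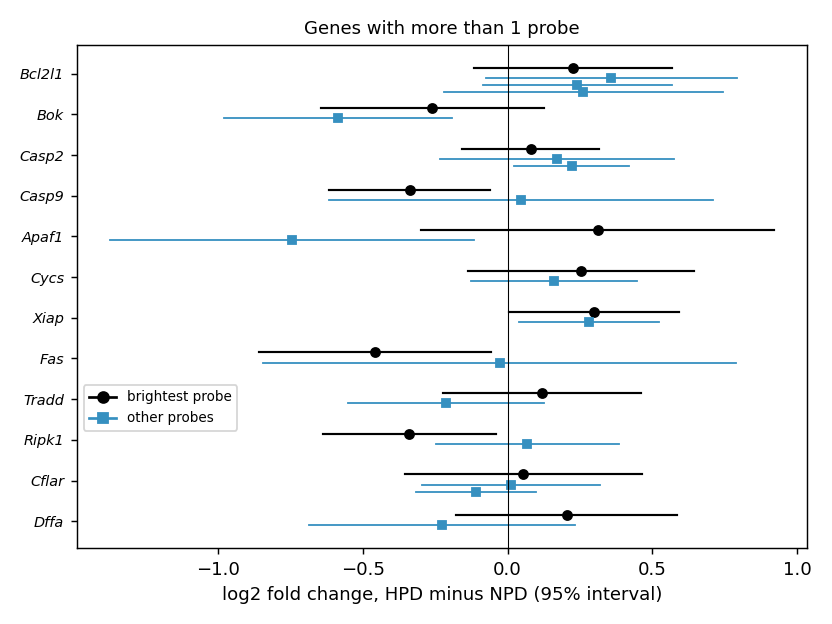
Log2 fold change, HPD minus NPD, with its 95% interval for every probe of the 12 genes that have more than 1. Black circles are the brightest probe and blue squares the others. The probes of Apaf1, Casp9, Ripk1, Tradd, Dffa and Cflar lie on both sides of 0.

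Other genes of the pathway, from lists that leave out the 37, gave no q-value under 0.1 in limma. Their counts at an unadjusted p under 0.05 stand beside 5.55% lower and 5.86% higher among all probes, and 8.48% and 5.29% among those well above background. Of 9 genes listed as further inhibitors of apoptosis 3 were lower at an unadjusted p under 0.05, Aven (-0.40), Bag1 (-0.37) and Faim (-0.40). These 3 are not inhibitors of apoptosis proteins of the Birc kind. The Birc genes of that list (Birc3, Birc5, Birc6 and Birc7) did not pass that threshold. Of 12 further genes listed with the Bcl-2 family Bcl2l14 was lower (-0.46) and Bcl2l10 (0.37) and Hrk (0.49), a BH3-only gene, were higher. That list also holds Vdac1, Vdac2, Vdac3 and Tmbim6, which are not members of the family. Of 15 further ligands, receptors and adaptors Tnf (-0.53) was lower and Dapk2 (0.24) higher, and Tnfsf10, which encodes TRAIL, was lower but above background on 5 NPD arrays and 1 HPD array, so its size is not given. Of 8 genes of the inflammasome, pyroptosis and necroptosis Nlrp6, a sensor of the colonic epithelium, was lower, with a change of -0.73 ± 0.20 (q = 0.417). Of 13 p53 targets Gadd45a was higher (0.44).

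The colonocyte label was compared with marker genes. All 11 epithelial markers on the array, Epcam and Krt8 among them, were above background on every array, with summed signals of 7930 to 9474 times the array median in NPD rats and 7655 to 10860 times in HPD rats. Of 16 immune markers 9 were above background on every array, and their sum was 109 to 155 times the array median in NPD rats and 93.0 to 120 times in HPD rats. Cd3e, a defining T cell gene, was above background on 3 NPD arrays and on no HPD array, and the B cell gene Ms4a1 on 1 and none. The sums of 12 stromal markers (13.0 to 27.8 against 12.2 to 21.2) and 6 endothelial markers (15.2 to 18.7 against 15.5 to 18.2) overlapped, as did those of 3 red blood cell markers (36.1 to 61.0 against 45.7 to 151). Each sum adds signals of different probes, so it can be compared between rats and not between cell types. The sums do not measure purity. Single markers of other cells differed at an unadjusted p under 0.05, though none at a limma q-value of 0.1. Hba-a2, a globin gene of red blood cells, was higher (0.52) and so was the collagen gene Col1a1 (0.35), with all 7 HPD rats over the average of NPD rats in both. The macrophage gene Lyz2 was lower (-0.56), with all 7 HPD rats under that average. Myh11 (-0.48) of smooth muscle and Esam (-0.33) of endothelium were also lower, while the myeloid gene Itgam was higher (0.34). Col3a1 was also higher, above background on 1 HPD array alone. Of the epithelial markers Krt19 was lower (-0.36). The part of other cells in the differences given here was not tested. In a bulk preparation fewer cells of a type and less RNA per cell cannot be told apart.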

How the data were processed

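Colonocyte RNA was labelled with Cy3 and hybridised to 1-colour Agilent arrays, and 14 arrays were analysed here, after the authors had removed 1 outlier of each diet. The deposited array files hold the scanner intensity of each spot after background subtraction by Agilent Feature Extraction 10.7.3.1, per the labels. The deposited table of log2 values, made by the authors with limma, was used as an alternative. Here the processed intensities were taken as log2, control spots and outlier-flagged spots (0.674%) were left out, spots of a probe were averaged and each array was centred on its median probe. Diet was the only term of a linear model over 14 arrays, fitted and moderated by limma 3.58.1 under R 4.3.3, with Benjamini-Hochberg adjustment over 30367 probes and a q-value of 0.1. Single values also had an exact two-sided permutation test (1716 distinct splits, smallest p 0.000583, or 1225 regroupings within slides, smallest p 0.000816), without adjustment over the genes. A probe was above background where at least 0.5 of its spots carried that call. Slide came from the array files. Every gene is named, and values per group are given for those at an unadjusted p under 0.05, for Bax, Ripk1, Bcl2, Casp8 and Casp9, and for the largest fall and rise. The genes and lists were chosen with earlier results of these data known. The scripts were tested on simulated data. Protein sequences were not used here. A further list of pathway genes is not reported here.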

Additional observations from a re-analysis of the deposited data

Results flagged for a closer look

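In 8 of 74 groups of 7 rats 1 value stood apart from the other 6 by more than Dixon's 95% limit. Chance gives about 5% of groups, and 10.8% were found. In Casp8, HPD replicate 1 was at 1.42, and without it the change was -0.38 (limma q = 0.143). The same rat was highest of its group in Mcl1 (5.39) and lowest in Htra2 (4.36), and without it the changes were -0.43 and -0.02. In Pmaip1, NPD replicate 2 was low at -2.95, and without it the change was 0.31. In Casp4, NPD replicate 6 was low at 3.20, and without it the change was 0.17. In Birc2, NPD replicate 1 was high at 2.85, and without it the change was -0.09. In Bad, HPD replicate 4 was low at 2.60, and without it the change was -0.02. In Bcl2l2, HPD replicate 7 was high at 3.75, and without it the change was 0.02. What set these values apart was not tested.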

How the results depend on the processing

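Of 35 genes with a fold, 22 kept their direction in all 18 settings other than leaving out a rat, and 31 in every fit with a rat left out. Genes past a q-value of 0.1 numbered 5 with normexp, 8 with normexp and slide (Bax, Birc2 and Fas were added, all lower) and 3 in the deposited table with slide, and 0 in the other settings run. Of all probes 16.9% passed with normexp, and 10.5% of rows did in the deposited table with slide. For normexp with slide no such share is given, so its count is not read as a result about these genes. Genes lower at an unadjusted p under 0.05 numbered 3, and 5 with centring on the mean, 6 with cyclic loess, quantile normalization or slide as a block, 6 with cyclic loess and slide, 9 in the deposited table, 11 there with slide, 1 with the mean of all probes, 5 with the probe of smallest p, 5 with mean and 7 with median pixel signal, and 10 with normexp with or without slide. Higher genes numbered 2, and 0 with centring on the mean, 4 with cyclic loess and slide, and 1 in the deposited table or with mean or median pixel signal. For these unadjusted counts, shares of all probes are given above only for diet alone and for slide as a block. The other counts describe the settings and are not read as results about these genes. The pro-death median was -0.13 with centring on the mean and with mean or median pixel signal, -0.17 in the deposited table, -0.18 there with slide, -0.16 with normexp with or without slide, and 0.0042 with centring over spots, an alternative chosen after seeing the data. The pro-survival median was -0.094 in the deposited table, -0.080 there with slide, -0.082 with normexp and -0.084 with normexp and slide. It was -0.019 with centring on the mean, -0.047 with mean pixel signal and -0.043 with median pixel signal. The cause of these differences was not tested.

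Leaving out 1 rat gave 0 genes past a q-value of 0.1 in every fit, 1 to 7 lower and 0 to 2 higher at an unadjusted p under 0.05, and 17 to 19 lower in all. No shares of all probes are given for these fits. The median change ran from -0.03 to 0.05 over all 37 genes, from -0.11 to -0.04 over pro-death and from 0.02 to 0.16 over pro-survival genes, and their difference from -0.22 to -0.083. Changes that turned ran from -0.24 to 0.055 in Bik, -0.025 to 0.16 in Cflar, -0.067 to 0.046 in Dffb and -0.13 to 0.040 in Endog.

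Single genes turned direction as follows. In the deposited table the changes were -0.25 for Apaf1, -0.094 for Bcl2l2, -0.026 for Casp6, -0.11 for Cflar, -0.025 for Diablo and -0.048 for Tradd, and with slide -0.25, -0.080, -0.068, -0.13, -0.071 and -0.053, with -0.020 for Dffa. With the mean of all probes they were -0.22 for Apaf1, -0.014 for Cflar, -0.012 for Dffa and -0.047 for Tradd, and with the probe of smallest p -0.74 for Apaf1, -0.11 for Cflar and -0.21 for Tradd. With centring over spots they were 0.0072 for Bad, 0.050 for Dffb, 0.029 for Endog and 0.0042 for Htra2, and with centring on the mean -0.023 for Bcl2l2 and -0.019 for Cflar. With mean pixel signal they were -0.047 for Bcl2l2, -0.033 for Casp2 and -0.049 for Cflar, and with median pixel signal -0.052, -0.033 and -0.043. With normexp they were -0.082 for Bcl2l2, 0.016 for Bmf, -0.075 for Casp2, -0.019 for Casp6, -0.089 for Cflar, -0.026 for Diablo and -0.026 for Tradd, and with slide added -0.084, 0.0095, -0.074, -0.077, -0.16, -0.091 and -0.055, with -0.016 for Dffa and 0.0058 for Dffb. Quantile normalization gave -0.010 for Casp2 and 0.0078 for Dffb, cyclic loess 0.013 for Dffb and, with slide, 0.056 for Dffb and -0.035 for Cflar, and slide alone 0.032 for Dffb and -0.029 for Cflar.

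Replicate numbers did not pair the rats. Same-numbered rats correlated in their deviations by -0.0899 to 0.386, and 1 of 7 correlated best with its own number. Replicates 1 to 3 of both diets lay on slide 1 and 5 to 7 on slide 2. With the replicate number as a block 0 genes passed a q-value of 0.1, and 5 were lower and 5 higher at an unadjusted p under 0.05. No share of all probes is given for that fit.

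Dim probes limit what can be said of Bcl2l11, Casp12 and Pmaip1. With 7 rats per diet and diet as the only term, most intervals were not within 0.5 on the log2 scale. With slide in the fit the interval of Bax was -0.68 to -0.04, in place of -1.23 to 0.18. That of Bok hardly changed (-0.67 to 0.10 in place of -0.65 to 0.12).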
